A study of Populus tremula with 16 samples.

Results

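Monolignol synthesis ends in a run of steps for which 8 poplar genes are described here. These genes, which carry out the later steps, were followed in aspen leaves (Populus tremula) through the autumn of 2011. They are a fixed list of genes, called CCoAOMT1 (Potri.009G099800), CCoAOMT2 (Potri.001G304800), CCoAOMT3 (Potri.008G136600), CCR2 (Potri.003G181400), CAld5H1 (Potri.005G117500), CAld5H2 (Potri.007G016400), AldOMT2 (Potri.012G006400) and CAD1 (Potri.009G095800). All 8 were among the 41335 gene IDs of the deposited count table, and 7 of them passed the filter on low counts, as did 15583 IDs in all. CCoAOMT3 did not pass it. The leaves come from dates between 27 July and 1 October, with 1 RNA sequencing library per date and no treatment, and the labels name neither the genotype nor how many trees or leaves stand behind a library. The library of 19 September was left out by the rule that chose the genes. The other 15 dates were divided into July and August (early, n = 4), 1 to 15 September (middle, n = 6) and 16 September to 1 October (late, n = 5). These limits, and a further split of the late period, were set with earlier results of these data known. The p-values are therefore not independent of that choice. Dates stand in for replicates, so the p-values measure the scatter between single dates. Any likeness between leaves of close dates, which was not measured, would make these p-values too small.

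Monolignols are the alcohols that are oxidised and coupled in the cell wall to make lignin, the polymer that stiffens and waterproofs the vessels and fibres of wood and of leaf veins. Intermediates of the pathway also feed soluble phenolic compounds and wall-bound ferulate. In the order of the pathway, CCoAOMT (caffeoyl-CoA O-methyltransferase) adds the first methyl group and makes feruloyl-CoA, and CCR (cinnamoyl-CoA reductase) turns the CoA ester into coniferaldehyde. CAld5H (coniferaldehyde 5-hydroxylase, also called ferulate 5-hydroxylase) opens the branch to syringyl lignin, AldOMT, an O-methyltransferase, adds the second methyl group on that branch, and CAD (cinnamyl alcohol dehydrogenase) makes the final alcohols. The deposited tables hold gene IDs without names, so names and roles rest on the gene list.

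Library totals ranged from 719419 to 6729131 counts, and the shallow libraries were those of 11 and 15 September, 28 September and 1 October. The 8 genes together held 111 to 1319 counts per library, so single values carry counting error, which is plotted as an exact 95% Poisson interval and covers counting only. Levels are given as the authors' normalised value, a count divided by 1 factor per library. Over the libraries the CPM computed here, which is a count over the library total after edgeR's TMM scaling, was 0.961 to 1.02 times these values. Levels of different genes are not compared, because gene lengths were not used. Shares of counts among genes also carry their lengths, so only the change of a share between dates is read. In bulk leaf RNA, fewer cells of a type and less RNA per cell cannot be told apart.

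The 8 genes did not move together in autumn. CAld5H2 and CCR2 rose to their highest levels in late leaves. CCoAOMT1, CCoAOMT2 and AldOMT2 fell in late leaves against those of 1 to 15 September. CAld5H1, AldOMT2 and CAD1 were lower on the last 2 dates than on 18 to 26 September. Of these lower levels, only the fall of CCoAOMT1 kept its call in every alternative that gave a value, as given with each gene. It gave no value with every library thinned to 1 depth. Over the whole series, 6 of the 7 tested genes changed with the day in edgeR's test of a smooth curve, where 62.9% of all tested IDs did, and CAld5H1 missed the threshold (adjusted p = 0.0853). The call of CAD1 in that test (adjusted p = 0.0321) ended without 18 September (0.0736), without 28 September (0.0737), without 1 October (0.122) or with a stiffer curve (0.103).

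**Figure D1:**
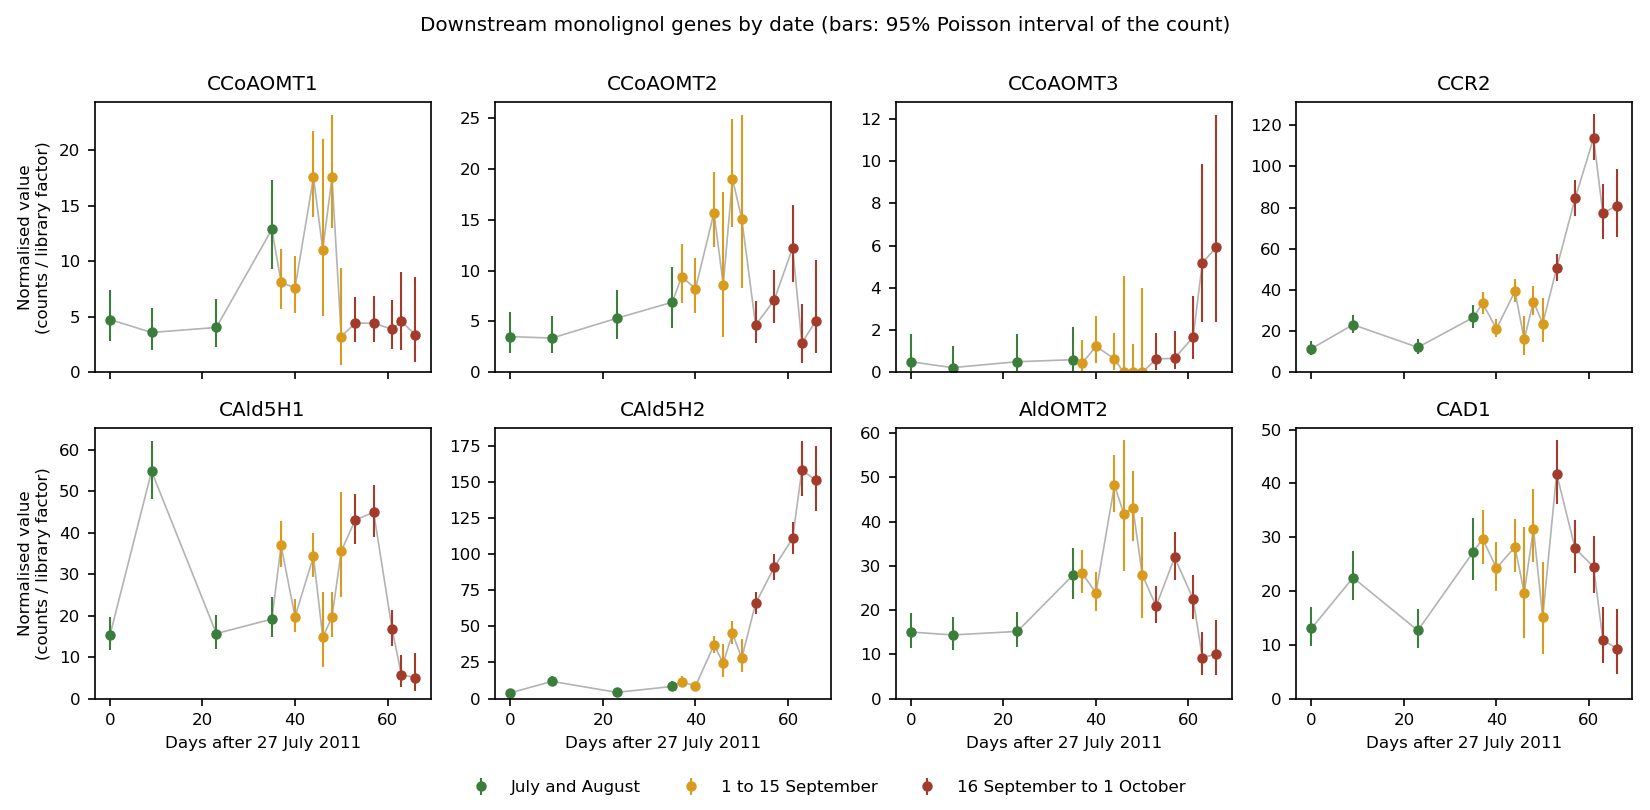
Normalised value of each gene (vertical axes, counts divided by the library factor, a different range per panel) against days after 27 July, with 1 point per library and bars for the 95% Poisson interval of the count. CAld5H2 stands at 158 and 151 on the last 2 dates, while CAld5H1 stands at 5.76 and 5.06.

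Late leaves differed from early leaves in 2 of the 7 tested genes, CCR2 and CAld5H2, both higher, with a threshold of 0.05 on the adjusted p from edgeR. That share lies below the background, since 58.2% of all tested IDs were called, 29.3% higher and 28.9% lower. Their late and early libraries did not overlap, as was so for 46.0% of all tested IDs. None of the 7 was called lower by edgeR, by DESeq2 or by limma-voom, and 0 had an unadjusted p under 0.05 with a lower level. The median log2 change of the 7 genes was 0.31, against 0.01 over all tested IDs. Summed over the 8 genes, the level was 227 to 294 CPM in late leaves and 68.2 to 132 CPM in early leaves. CCR2 and CAld5H2 held 65.7% of the genes' raw counts pooled over the late libraries and 25.4% over the early ones, where deeper libraries weigh more.

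Late against middle leaves, 5 of the 7 genes differed, 2 higher and 3 lower, where 47.7% of all tested IDs did (24.4% higher, 23.3% lower). Middle against early leaves, CCoAOMT2 and CAld5H2 were called higher and 0 genes lower, where 4.55% of all tested IDs were called (2.41% higher, 2.14% lower). DESeq2 and limma-voom also called 2 genes higher and 0 lower there, and at an unadjusted p under 0.05 edgeR had 4 higher and 0 lower. These comparisons share libraries and are not independent of each other. Libraries did not overlap for 2 of the 7 genes late against middle (CCR2 and CAld5H2) and for 1 middle against early (CCoAOMT2), where 23.2% and 10.8% of all tested IDs did not. Both calls of the middle leaves ended when some single dates were left out, as given with each gene. Their changes then stayed between 1.26 and 1.62 log2 units for CCoAOMT2 and between 1.60 and 2.20 for CAld5H2.

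**Figure D2:**
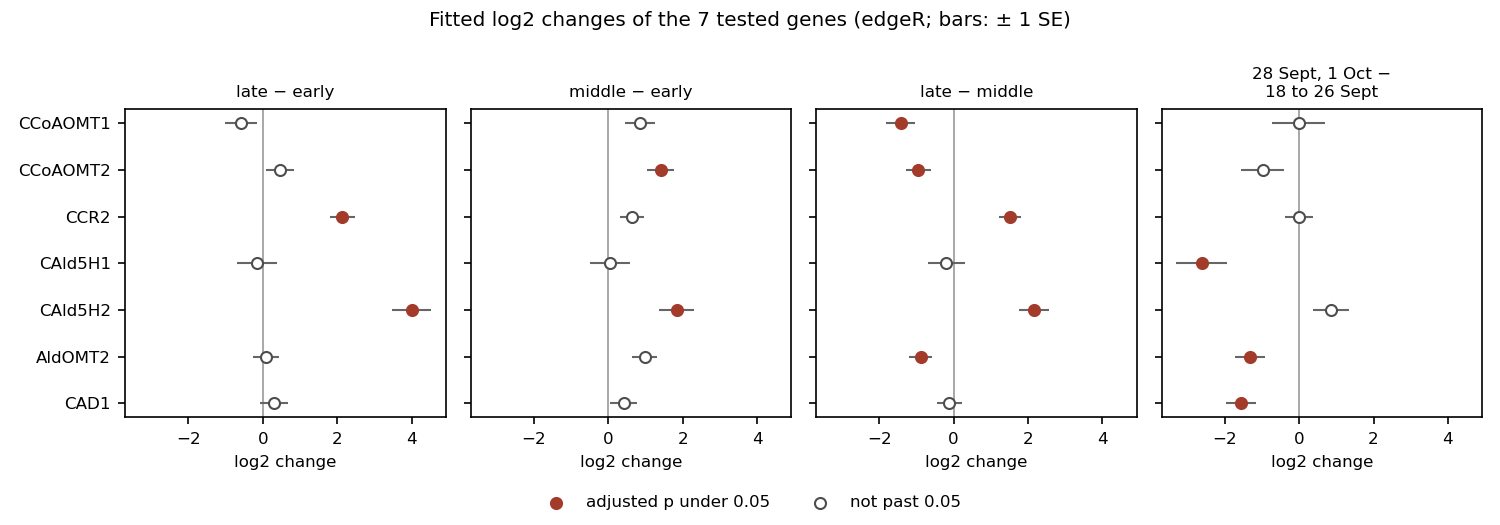
Fitted log2 change (horizontal axis) of the 7 tested genes in 4 comparisons, 1 panel each, with bars of 1 SE and filled points for an adjusted p under 0.05 by edgeR. CAld5H2 has a change of 4.00 late against early, and CAld5H1 has a change of -2.62 on the last 2 dates against 18 to 26 September.

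CCoAOMT1, a methyltransferase of the feruloyl-CoA step, was high around the second week of September. Its normalised value was 4.76, 3.6, 4.05 and 12.9 on the 4 early dates from 27 July to 31 August. In the middle period it ran from 3.23 on 15 September, from 3 counts, through a median of 9.59 to 17.6 on 9 September. The late libraries held 4.43, 4.43, 3.89, 4.61 and 3.37 from 18 September to 1 October. All late values lay inside the range of the middle ones, and 31 August stood above the other early dates. The gene fell by 1.42 log2 units in late against middle leaves (SE 0.39, edgeR adjusted p = 0.00715), and that call held in all 26 alternatives that gave a value, with an adjusted p of up to 0.0318. With every library thinned to 1 depth the gene gave no value, so its fall was not assessed at equal depth. Late against early leaves gave a change of -0.57 (SE 0.43, adjusted p = 0.264), and middle against early leaves gave 0.85 (SE 0.39, adjusted p = 0.246). Without 31 August the middle leaves passed the threshold, with a change of 1.42 (adjusted p = 0.0466), as they did with the limits moved 1 date earlier (adjusted p = 0.0329). The fitted curve peaked on 10 September, and those of CCoAOMT2, AldOMT2 and CAD1 on 14 September.

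CCoAOMT2, its close paralog, was also highest on average in middle leaves. CCoAOMT1 and CCoAOMT2 parted on 15 September (3.23 against 15.1) and on 26 September (3.89 against 12.2). Early libraries of CCoAOMT2 held 3.51, 3.37, 5.31 and 6.89. Middle libraries ran from 8.22 on 5 September through a median of 12.2 to 19.0 on 13 September, all above the early ones. Late libraries held 4.64, 7.09, 12.2, 2.88 and 5.06, which overlapped both other periods. Middle leaves were higher than early leaves by 1.42 log2 units (SE 0.36, edgeR adjusted p = 0.034). That call ended without any of 27 July, 5 and 19 August and 9, 13 and 15 September (adjusted p of 0.0601 to 0.142) and after the period limits were moved 1 date later (0.163) or earlier (0.171). Late leaves were lower than middle leaves, with a change of -0.95 (SE 0.33, adjusted p = 0.0272). This call ended without 9 September (0.0516), 13 September (0.0685), 18 September (0.055) or 28 September (0.0532), without both last dates (0.0848), with library totals alone (0.0951) and after a move of the limits 1 date later (0.182) or earlier (0.183). Late against early leaves did not differ beyond the scatter (0.47, SE 0.38, adjusted p = 0.298).

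The labels leave unstated how a read that fits both near copies was assigned, so the split between them is uncertain. With their counts summed, the pair changed by -1.16 log2 units in late against middle leaves (SE 0.32, edgeR adjusted p = 0.00686) and by 1.11 in middle against early leaves (SE 0.34, adjusted p = 0.0681). CCoAOMT2 held 57.4 ± 13.8% of the pair's counts in late leaves (SD, n = 5), 55.1 ± 13.8% in middle leaves (SD, n = 6) and 45.6 ± 9.27% in early leaves (SD, n = 4). These shares differed by less than the scatter between dates (exact two-sided permutation p = 0.19 for late against early, adjusted 0.254).

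CCoAOMT3 was nearly silent until the last 2 dates. Its early libraries held 2, 1, 2 and 2 counts, and the middle ones 2, 6, 3, 0, 0 and 0. From 18 September to 1 October it had 3, 3, 6, 9 and 7 counts, and the last 9 and 7 came from shallow libraries. As normalised values, that is 5.18 and 5.91 on 28 September and 1 October, against at most 1.67 on any other date. Taken as up to 3 counts, the 0 counts allow 3.76, 1.04 and 3.29 CPM on 11, 13 and 15 September. By summed counts the last 2 dates stood 12.5-fold above early leaves, and the exact 95% interval for counting error alone was 4.87 to 35.9. With no filter on low counts, where 30299 IDs entered the fit, edgeR gave a change of 2.26 log2 units on the last 2 dates against 18 to 26 September (SE 0.73, adjusted p = 0.0119) and 2.17 in late against early leaves (SE 0.75, adjusted p = 0.0251). CCoAOMT3 made up 40.9% of the counts of the 3 CCoAOMT genes on 28 September (95% Wilson interval 23.3 to 61.3%) and 41.2% on 1 October (21.6 to 64.0%). Its share averaged 20.7 ± 18.6% in late leaves (SD, n = 5), 1.91 ± 2.81% in middle leaves (SD, n = 6) and 4.23 ± 1.40% in early leaves (SD, n = 4). The exact two-sided permutation p was 0.013 for late against middle (adjusted 0.0476) and 0.0317 for late against early (adjusted 0.0544). In 16 alternatives the late against middle difference stayed between 13.7 and 22.6 points. Its adjusted p was under 0.05 in 2 of these, and at most 0.0866 in the others. This share was chosen after the values were seen, so its p-values are not independent of them.

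CCR2, the reductase at the entry to the aldehydes, stood at 11.5, 23.2, 12.1 and 26.7 in the early libraries. The middle ones ran from 16.0 on 11 September through a median of 28.6 to 39.4 on 9 September. In late leaves it stood at 50.5, 84.4, 114, 77.2 and 81.0. Every late library lay above every middle and early library. The highest value was that of 26 September. Late leaves were 4.41-fold higher than early leaves (log2 change 2.14, SE 0.34, edgeR adjusted p = 7.16e-05) and 2.84-fold higher than middle leaves (1.51, SE 0.29, adjusted p = 0.000715). Both calls held in all 27 alternatives, with changes of 1.86 to 3.12 against early leaves. Middle against early leaves gave 0.63 (SE 0.32, adjusted p = 0.298), and the last 2 dates did not differ from 18 to 26 September beyond the scatter (SE 0.38, adjusted p = 0.996). The fitted curves of CCR2 and CAld5H2 were highest on 1 October, at the end of the series, with ranges of 2.91 and 4.87 log2 units.

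CAld5H2, a hydroxylase of the syringyl branch, had the largest late change among the 7 tested genes. Its level was 4.01, 11.9, 4.30 and 8.39 on the early dates. On 2 and 5 September it was still at 11.7 and 8.63, in the range of the early dates, and on 9, 11, 13 and 15 September it was at 37.1, 24.6, 45.2 and 28.0, above all of them. Late libraries held 65.9, 90.8, 111, 158 and 151. No late library overlapped a middle or early one. Late leaves were 16-fold higher than early leaves (log2 change 4.00, SE 0.52, edgeR adjusted p = 1.42e-05) and 4.47-fold higher than middle leaves (2.16, SE 0.41, adjusted p = 0.000662). These calls held in every alternative, 28 and 27 of them. Middle leaves were above early leaves by 1.84 log2 units (SE 0.48, adjusted p = 0.0346). That call ended without any of 27 July, 19 and 31 August and 9, 11, 13 and 15 September (adjusted p of 0.0579 to 0.148) and with period limits 1 date earlier (0.267). Within the late period, the last 2 dates gave a change of 0.86 against 18 to 26 September, which missed the threshold (SE 0.49, adjusted p = 0.186).

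CAld5H1, the other hydroxylase, went a different way. Early libraries held 15.3, 54.9, 15.7 and 19.2, with 5 August far above the rest. Middle libraries ran from 14.8 on 11 September through a median of 27.0 to 37.0 on 2 September. Late libraries held 43.1 and 45.0 on 18 and 22 September, then 16.7, 5.76 and 5.06 on 26 and 28 September and 1 October. The first 2 of these exceeded all middle values, and the last 2 were below every other date. On the last 2 dates the gene was 6.16-fold lower than on 18 to 26 September (log2 change -2.62, SE 0.68, edgeR adjusted p = 0.00523). That call ended without 28 September (0.0551) or without 1 October (0.0523), when a single library stood for the last dates and was assumed to vary like the others. With every library thinned to 1 depth the change was -4.48 (adjusted p = 0.00401). That was 1 random draw, from 10 and 6 counts on the last 2 dates before thinning, so its size is uncertain. By summed counts the last 2 dates stood at 0.203 times the early level, with an exact interval of 0.115 to 0.334 for counting error only. That early level rests on 5 August, which held 244 of its 431 counts, and without that date the ratio was 0.335 (0.188 to 0.558). Over all late dates, high and low, late against early leaves gave -0.15 (SE 0.55, adjusted p = 0.832), and 0.45 without 5 August.

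How the 2 hydroxylases parted was also read from their shared counts, a measure that needs no scaling between libraries. Both genes had higher levels on 18 and 22 September than on any early date but 5 August for CAld5H1, and from 26 September CAld5H1 had lower values than on those dates and CAld5H2 higher ones. CAld5H2 held 20.8%, 17.8%, 21.5% and 30.4% of the pair's counts on the early dates. In the middle period the share ran from 24.1% on 2 September to 69.6% on 13 September. It was 60.5% on 18 September (95% Wilson interval 56.2 to 64.6%), 66.9% on 22 September, 86.9% on 26 September, 96.5% on 28 September (93.7 to 98.1%) and 96.8% on 1 October (93.1 to 98.5%). All late shares lay above all early ones. Late leaves averaged 81.5 ± 16.9% (SD, n = 5) and early leaves 22.6 ± 5.43% (SD, n = 4), a difference of 58.9 percentage points (exact two-sided permutation p = 0.0159, the smallest that 5 against 4 libraries can give, adjusted 0.0476 over 12 tests of 4 shares). Middle leaves averaged 47.1 ± 17.8% (SD, n = 6), with exact permutation p = 0.0286 against early leaves (adjusted 0.0544), and late against middle leaves gave 0.0216 (adjusted 0.0519). These 4 shares were chosen after the values were seen. The difference of late against early stayed between 55.0 and 64.1 points in 16 alternatives, 15 of which left out 1 date. Its adjusted p was under 0.05 in 2 of them, without 5 September or without 22 September, and at most 0.0857 in the others. A smaller set raises the smallest p that can be reached, and leaving out a middle date changes only the adjustment over the 12 tests, so the adjusted p says little about how stable the difference is. As the labels do not say how reads shared by the 2 copies were assigned, the split is uncertain. Summed as 1 gene, the pair rose by 2.05 log2 units in late against early leaves (SE 0.39, edgeR adjusted p = 0.000297).

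**Figure D3:**
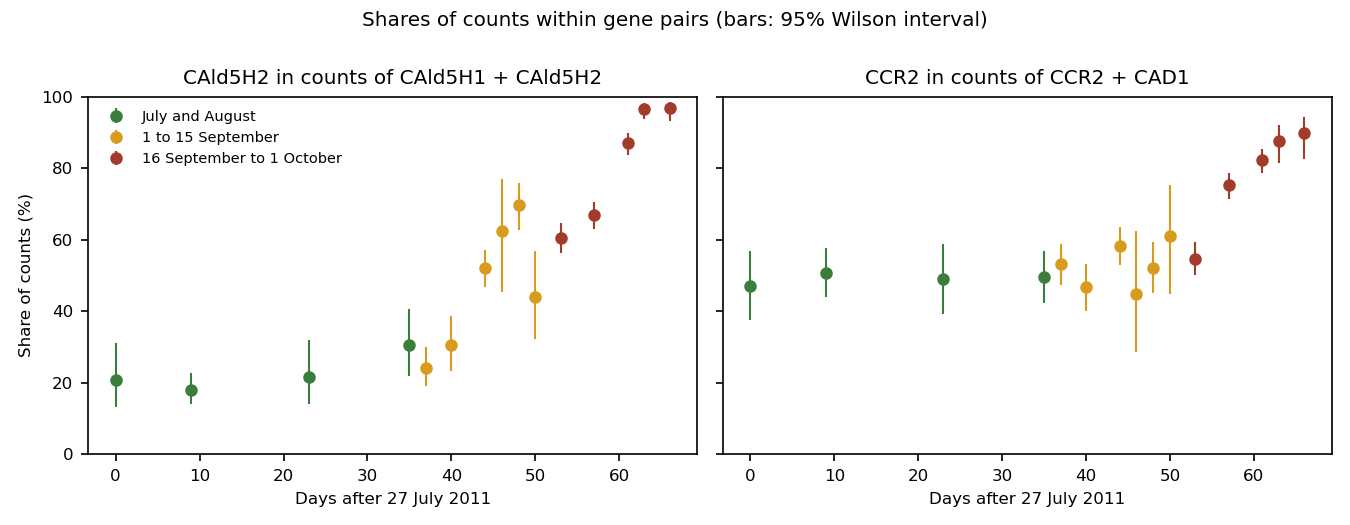
Share of counts in percent (vertical axis, 0 to 100) that CAld5H2 held of the CAld5H pair (left) and CCR2 of CCR2 and CAD1 together (right), against days after 27 July, with 1 point per library and 95% Wilson intervals. On 1 October the shares were 96.8% and 89.7%, and in early leaves they were 17.8 to 30.4% and 46.9 to 50.7%.

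AldOMT2, which methylates the product of CAld5H, did not follow CAld5H2. It stood at 15.0, 14.4, 15.2 and 27.9 on the early dates. Middle libraries ran from 23.8 on 5 September through a median of 35.1 to 48.3 on 9 September. Late libraries held 20.9, 31.9, 22.5, 9.21 and 10.1, and the last 2 were below every other date of the series. Late leaves were lower than middle leaves, with a log2 change of -0.89 (SE 0.31, edgeR adjusted p = 0.0277). That call ended without 9 September (0.0544), 13 September (0.0524), 28 September (0.0582) or 1 October (0.0502), without both last dates (0.117), with period limits 1 date later (0.069) and with library totals alone (0.0925). The last 2 dates were 2.50-fold lower than 18 to 26 September (-1.32, SE 0.41, adjusted p = 0.0162). The call ended without 22 September (-1.10, adjusted p = 0.0625), 28 September (-1.26, 0.123) or 1 October (-1.41, 0.0753), with thinning to 1 depth (-1.43, 0.0859) and with library totals alone (-0.93, 0.13), in each case with a change of the same sign. Middle against early leaves gave 0.98 (SE 0.34, adjusted p = 0.111), and late against early leaves gave 0.09 (SE 0.34, adjusted p = 0.839).

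CAD1, the last enzyme before the alcohols leave for the wall, stood at 13.0, 22.5, 12.7 and 27.3 in early leaves. The middle period ran from 15.1 on 15 September through a median of 26.2 to 31.5 on 13 September. Late values were 41.8, 27.9, 24.5, 10.9 and 9.28. The series had its highest value on 18 September and its lowest on the last 2 dates. The last 2 dates were 2.97-fold lower than 18 to 26 September (log2 change -1.57, SE 0.40, edgeR adjusted p = 0.00517), a call that ended without 1 October (0.0546). The 3 periods gave changes of 0.31 (SE 0.37, adjusted p = 0.491) late against early, 0.42 (SE 0.36, adjusted p = 0.587) middle against early and -0.11 (SE 0.34, adjusted p = 0.808) late against middle. Without the last 2 dates, late leaves were above early leaves by 0.71 (adjusted p = 0.0398).

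CCR2 and CAD1 act in sequence, with CCR2 making the aldehyde and CAD1 the alcohols, and their counts parted within the late period. CCR2 held 46.9%, 50.7%, 49.0% and 49.4% of their joint counts on the early dates. Its share was 54.7%, 75.1%, 82.3%, 87.6% and 89.7% on the late dates, each above all early values. The late mean was 77.9 ± 14.1% (SD, n = 5) and the early mean 49.0 ± 1.58% (SD, n = 4), with exact permutation p = 0.0159 (adjusted 0.0476). Against middle leaves, at 52.7 ± 6.35% (SD, n = 6), the late share had exact permutation p = 0.013 (adjusted 0.0476). In 16 alternatives the differences stayed between 25.3 and 34.7 points (against early) and between 21.7 and 31.0 points (against middle). Their adjusted p was under 0.05 in 2 and in 1 of these, and at most 0.0857 and 0.0779. Late against early, the p of 0.0159 is again the smallest that can be reached. This share, too, was chosen after the values were seen, so its p-values are not independent of them.

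On the last 2 dates as a group, 3 of the 7 tested genes were lower than on 18 to 26 September and 0 higher, where 33.8% of all tested IDs were called, 16.0% lower and 17.8% higher. DESeq2 and limma-voom gave the same numbers, and 0 genes were higher at an unadjusted p under 0.05. The late period was split because earlier results of these data showed expression moving within it. These calls are therefore not independent of the data. The median log2 change of the 7 genes was -0.98, against -0.25 over all tested IDs. Library depth moved with this comparison, with 1162665 and 756966 counts on the last 2 dates against 4344936, 3789246 and 3271054 on 18, 22 and 26 September. Outside the 10 most abundant IDs the gap was smaller, with 726224 and 511835 counts against 1191612, 1128896 and 1062291. With every library thinned to 1 depth, the calls of CAld5H1 and CAD1 held, with changes of -4.48 and -1.89, and AldOMT2 kept its change (-1.43, against -1.32) with a larger SE (0.65) that ended its call. Thinning was 1 random draw, down to 164929 counts outside the 10 most abundant IDs. CAld5H1 had 10 and 6 counts on the last 2 dates before thinning, so its thinned change rests on very few counts.

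The earlier steps of the pathway were read from 14 IDs taken from general knowledge of poplar as its phenylalanine ammonia-lyase to caffeoyl shikimate esterase genes, which the deposited tables do not annotate. Of the 14, 10 passed the filter. In late against early leaves 4 of the 10 were called higher and 0 lower by edgeR, while DESeq2 called 3 higher and limma-voom 5, neither any lower. Over all tested IDs 58.2% were called and 29.3% were called higher in this comparison. Their median log2 change was 0.65, against 0.01 over all tested IDs, and the summed level of the 14 IDs was 78.7 to 169 CPM in late leaves and 47.3 to 90.4 CPM in early leaves. The largest change was that of Potri.006G126800 (2.89, SE 0.51, edgeR adjusted p = 0.000159), and the smallest that of Potri.019G130700 (-0.41, SE 0.29, adjusted p = 0.231). Middle against early, edgeR called 0 of the 10 (4.55% of all tested IDs), while 7 were higher at an unadjusted p under 0.05 and DESeq2 and limma-voom called 1 each. Late against middle, 2 were higher and 1 lower, where 24.4% and 23.3% of all tested IDs were. On the last 2 dates against 18 to 26 September, 1 was higher, Potri.006G126800 (1.46, SE 0.42, adjusted p = 0.0104), and 0 were lower, where 17.8% and 16.0% of all tested IDs were.

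Lignifying xylem of the veins was read from 5 IDs taken, again from general knowledge, as secondary wall cellulose synthases. Their summed level was 3.44 to 15.6 CPM in late leaves, 1.25 to 3.14 CPM in middle leaves and 2.05 to 3.28 CPM in early leaves. On 28 September and 1 October it was 15.6 and 15.5 CPM, from 27 and 18 counts, and the late libraries before that held at most 4.81 CPM. Only Potri.011G069600 of the 5 passed the filter, higher in late than in early leaves by 1.16 log2 units (SE 0.38, edgeR adjusted p = 0.0145), a call that DESeq2 did not make. Potri.002G257900 was at 0 in early and middle leaves and had 2 counts in late leaves. Potri.018G103900, which did not pass the filter and is named after its values were seen, made up the largest part of the late sum, with a mean of 4.41 CPM in late leaves, 0.173 CPM in middle leaves and 0.263 CPM in early leaves, from 46 counts in all. Potri.006G181900 averaged 0.674 CPM in late leaves and 0.813 CPM in early leaves, and Potri.004G059600 had 2 counts in all. The summed level was highest on the last 2 dates, when CCoAOMT3 was highest too. The part of these markers in the late values of the 8 genes was not tested. The leaf label itself was not checked against photosynthesis genes, for which no annotation was used here.

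**Figure D4:**
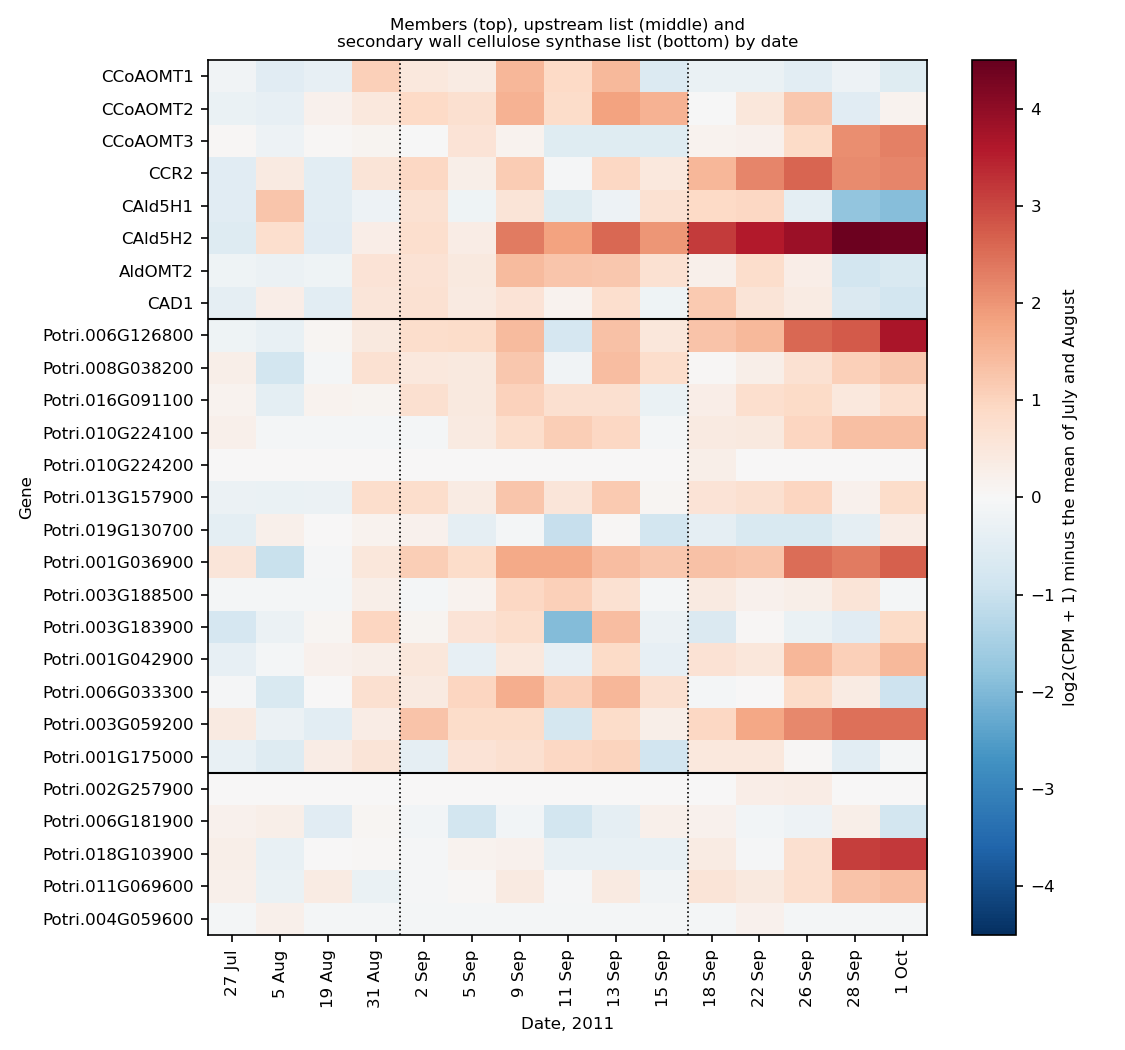
Colour gives log2(CPM + 1) minus the mean of July and August for each gene (rows) and date (columns), with the 8 genes on top, the 14 upstream IDs in the middle and the 5 cellulose synthase IDs at the bottom, and dotted lines at the period limits. CAld5H2 and CCR2 are red in all late columns, and CAld5H1, AldOMT2 and CAD1 are blue in the last 2 columns.

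Likeness of course was measured as the root mean square difference of log2 CPM over the 15 libraries after each gene's own mean was taken off, with no test. Among the 7 tested genes the closest pair was CCoAOMT2 and AldOMT2 (0.44 log2 units), then AldOMT2 and CAD1 (0.52), and the farthest was CAld5H1 and CAld5H2 (2.14). CCoAOMT1 and CCoAOMT2 lay 0.73 apart, and each was nearer to AldOMT2 (0.54 and 0.44). CCR2 was nearer to CAld5H2 (0.90) than to the other 5. A flat course lay 0.97 from CCR2, 1.68 from CAld5H2, 0.68 from AldOMT2 and 0.58 from CAD1. It lay 0.76 from CCoAOMT1 and 0.75 from CCoAOMT2. For CCR2 with CAld5H2, AldOMT2 with CAD1 and CCoAOMT1 with CCoAOMT2, the distance was little below the smaller of these values. Outside the 8, the nearest tested IDs to CAld5H2 were Potri.006G022800 (0.40) and Potri.017G052000 (0.42), against a median of 1.8 over 15576 IDs. The nearest to CCR2 were Potri.006G004400 (0.26) and Potri.010G138600 (0.33), against a median of 1.18. CAld5H1 lay closest to Potri.014G000400 (0.34) and Potri.005G255500 (0.35). AldOMT2 had Potri.009G006900 (0.30) and Potri.004G017700 (0.31), and CAD1 had Potri.004G072200 and Potri.010G210900 (both 0.29). CCoAOMT1 had Potri.004G091300 (0.39) and Potri.015G145400 (0.44), and CCoAOMT2 had Potri.014G168700 (0.36) and Potri.005G099900 (0.37). What these IDs encode was not used here, and libraries that share a date's depth and scaling add to such likeness.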

How the data were processed

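The authors deposited raw counts per gene ID, and a normalised signal in which each count is divided by 1 factor per library. Libraries were made with a TruSeq RNA kit, per the labels' protocols. The submitters' processing notes list STAR 2.4, HTSeq, Trimmomatic 1.0, FastQC 1.0 and CASAVA 1.8.2. Genome build, strand setting and handling of multiply matching reads: not given in the sources used here. None of the 18378 IDs counted on 19 September exceeded its count of 18 September (0 cases), so 19 September is not an independent sample. It was left out, and values with it are in the closing section.

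Raw counts were filtered with filterByExpr (minimum count 10, minimum total 15), scaled by TMM and tested by quasi-likelihood in edgeR 4.0.16 under R 4.3.3. All 15 libraries entered 1 fit of 3 periods, a second fit that divided the late period at 28 September, and another with a natural cubic spline (3 degrees of freedom) of the date. Benjamini-Hochberg adjustment ran over all tested IDs, with calls at 0.05. SE is the change over the root of F. Alternatives used DESeq2 1.42.0 and limma 3.58.1. Scripts were tested on simulated data.

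All 8 genes are named, with the 2 nearest IDs of each tested gene and the extremes of each list. Genes, lists, period limits and the split of the late period were chosen with earlier results of these data known. Lists that needed gene descriptions (other genes of these enzyme families, laccases, photosynthesis genes) could not be formed, and no sequences were used. The tables hold 0 sample columns outside the 16 libraries.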

Additional observations from a re-analysis of the deposited data

Results flagged for a closer look

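Within each period, the 8 genes' levels and the 4 shares gave 36 groups of 4 to 6 libraries. In 5 of them the gap between an extreme library and its neighbour passed Dixon's 95% limit, which chance alone exceeds in about 1 in 20 groups. On 31 August CCoAOMT1 stood at 12.9, with 4.76 in the nearest early library, and AldOMT2 at 27.9, with 15.2 in the nearest. Without that date their early means were 4.14 ± 0.589 and 14.9 ± 0.426 (SD, n = 3). CAld5H1 stood at 54.9 on 5 August, from 244 counts, with 19.2 in the nearest early library and a mean of 16.7 ± 2.14 over the other 3. CCoAOMT2 held 82.4% of its pair's counts on 15 September, from 17 counts, with 53.7% in the nearest middle library. CCoAOMT3 held 7.23% of the 3 CCoAOMT genes' counts on 5 September, from 6 counts, with 2.38% in the nearest middle library.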

How the results depend on the processing

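The late rises of CCR2 and CAld5H2, against early and against middle leaves, kept their direction and stayed past the threshold in every alternative run. Late against early, the median change over the tested IDs was 0.92 under library totals, 0.01 under TMM, -0.12 under relative log expression and -0.24 under the upper quartile (log2), and 79.5%, 50.3%, 45.0% and 40.8% of the calls were higher. On the last 2 dates against 18 to 26 September the medians were 0.15, -0.25, -0.10 and -0.45. In middle against early leaves 96.4% of the calls were higher with library totals alone, against 53.0% with TMM, and in late against middle leaves 65.4%, 51.2% with TMM and 38.2% with the upper quartile. The cause of the changes below was not tested, except that thinning leaves fewer counts and leaving out dates leaves fewer libraries.

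With library totals alone, 5 of the genes were called higher late against early (2 with TMM), 6 higher middle against early (2 with TMM), and 1 lower late against middle (3 with TMM). All IDs called middle against early were 3797 with library totals, 1213 with DESeq2, 2229 with only the libraries compared, 105 and 100 after the limits were moved 1 date later and earlier, and 709 in the fit as reported. Thinning to 1 depth left 2865, 244, 2489 and 2011 IDs in late against early, middle against early, late against middle and the last 2 dates, and 3362 in the time course, where 9068, 709, 7440, 5267 and 9807 were reported. It left 1 gene higher middle against early (CAld5H2) and 1 lower late against middle (AldOMT2, -1.18, edgeR adjusted p = 0.0167). CCoAOMT1 and CCoAOMT2 gave no value after thinning, so their calls were not assessed there. Period limits 1 date later and earlier each left 1 gene higher middle against early, and limits 1 date later left 1 lower late against middle, as did leaving out 28 September and 1 October. CCoAOMT3 entered the last-dates comparison with no filter, or with only the libraries compared, and 1 gene was then called higher. With only the libraries compared, it could pass the filter only through 28 September and 1 October, where it was high. That call therefore adds no support. Leaving out 1 library gave 163 to 1030 IDs and 0 to 2 genes called higher middle against early, 1 to 3 genes lower late against middle, and 2984 to 5581 IDs and 0 to 3 genes lower on the last 2 dates.

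Signs turned only for changes that were not called. AldOMT2 late against early was 0.09 as reported, -0.047 with relative log expression, -0.15 after upper quartile scaling, -0.037 with DESeq2, -0.35 thinned, -0.10 with limits 1 date later, -0.026 with only the libraries compared, and -0.16 to 0.30 with 1 library left out. CCoAOMT1 late against early was 0.34 with library totals. CAld5H1 late against early was 0.70 with library totals, 0.013 with the 19 September library, 0.38 without both last dates and -0.51 to 0.45 with 1 library left out. CAD1 late against early was -0.090 thinned, -0.18 with limits 1 date later and -0.048 to 0.47 with 1 library left out. CAld5H1 middle against early was -0.011 with relative log expression, -0.013 with DESeq2, -0.23 thinned, -0.015 and -0.25 with limits 1 date later and earlier, and -0.15 to 0.69 with 1 library left out. CAld5H1 late against middle was 0.0067 with library totals, 0.042 with limits 1 date earlier, 0.33 without both last dates and -0.54 to 0.011 with 1 library left out. CAD1 late against middle was 0.11 with library totals, 0.26 without both last dates and -0.46 to 0.022 with 1 library left out. On the last 2 dates, CCoAOMT1 was 0.13, 0.39, 0.13, 0.066 and 0.10 with relative log expression, library totals, DESeq2, limma-voom and the 19 September library, and -0.29 to 0.14 with 1 library left out. CCR2 was 0.16, 0.39, 0.16, 0.074 and 0.16 under the same alternatives, and -0.23 to 0.30. The share of CCoAOMT2 late against middle differed by -2.34 to 7.71 points with 1 library left out. With the paralogs' counts summed, the change late against early was -0.050 for the CCoAOMT pair, where CCoAOMT2 alone had 0.47, and 2.05 for the CAld5H pair, where CAld5H1 alone had -0.15. CAld5H1 passed the threshold of the time course in 11 of 25 alternatives.

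No paired analysis was possible because each library is a date of its own and the replicate numbers only name dates. Depth limits CCoAOMT3 most, with 46 counts in all.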
